A study of Mus musculus with 3 samples.

Results

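The 8 genes described here, Pax6, Sp8, Etv1, Tshz1, Th, Prokr2, Scgn and Dcx, act in the dorsal lateral ganglionic eminence (LGE) or in the neurons it sends to the olfactory bulb. They were picked for this known biology, with earlier results of these data already known, and are 8 of the 21887 protein-coding genes placed on the mm10 genome. Each was examined over its gene body and 50 kb on either side. CUT&Tag, in which an antibody tethers a transposase that cuts and tags the DNA close to the bound protein, was run on LGE cells of CD1 mouse embryos at embryonic day 14.5. There were 2 libraries with a mouse polyclonal antibody against the homeodomain transcription factor MEIS2 and 1 library with no primary antibody, each from 100000 cells. The labels name no mutation or treatment in any group, and do not say whether the MEIS2 libraries came from separate embryos, so their spread may be technical. With peak positions only, the tissue label could not be checked against expressed marker genes.

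The dorsal LGE is the embryonic source of many olfactory bulb interneurons, whose precursors migrate along the rostral migratory stream and end in the granule and glomerular layers of the bulb. Pax6, Sp8, Etv1 (also called Er81) and Tshz1 encode transcription factors of this lineage. Th encodes tyrosine hydroxylase, the rate-limiting enzyme of dopamine synthesis, made in periglomerular dopaminergic neurons, and Scgn encodes secretagogin, a calcium-binding protein of bulb interneurons. Prokr2 encodes a prokineticin receptor needed for neuroblasts to reach the bulb, and Dcx encodes doublecortin, a microtubule-binding protein of migrating neuroblasts. MEIS2 belongs to the TALE homeodomain family, which binds DNA alone or with PBX partners.

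A reproducible peak was a replicate 1 peak that shared at least 1 bp with a replicate 2 peak and none with a no-antibody peak. The 8 windows held 41 replicate 1 peaks, 50 replicate 2 peaks and 8 peaks of the control without antibody. Of the 41, 26 were reproducible (63.4%), beside 61.2% of the 78060 peaks of replicate 1 over the genome. The Wilson 95% interval of 48.1 to 76.4 holds counting error only. It takes the peaks as independent and leaves out the spread between libraries and loci. All 8 genes had at least 1 reproducible peak in the window, and 92.8% of protein-coding genes did in windows of the same kind. A count of 8 in 8 is therefore close to the background. Peaks were given to a gene by position alone, and several peaks of 1 locus are not replicates of each other.

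**Figure D1:**
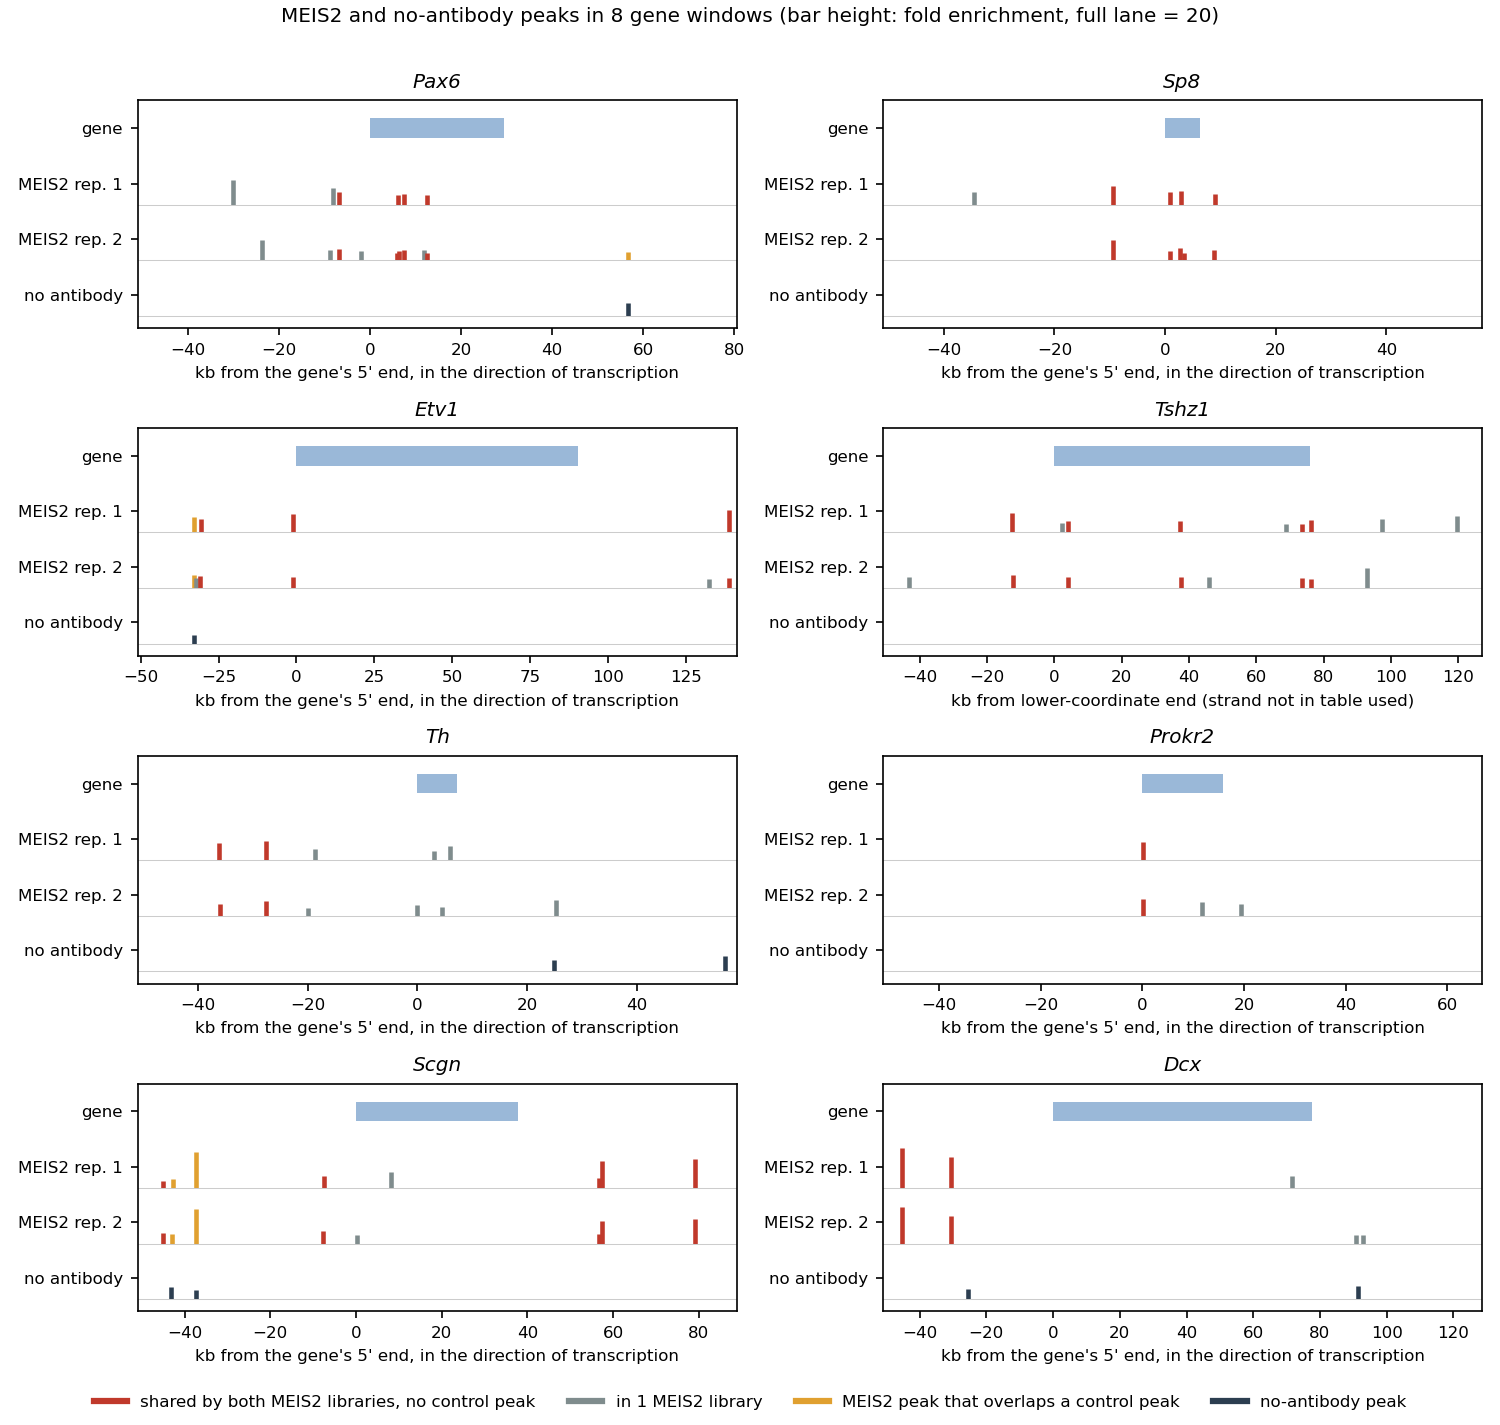
Peaks in the 8 windows, by distance in kb from the gene's 5′ end (for Tshz1, from its lower-coordinate end); bar height is the deposited fold enrichment, with a full lane at 20. The tallest red bars, peaks shared by both MEIS2 libraries without a control peak, stand upstream of Dcx and downstream of Scgn, and the gene body of Etv1 is empty in all 3 libraries.

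The peaks over annotated start sites can be read base by base, so 3 promoter sequences that carry one are shown first. RefSeq promoters of GRCm38.p6, each running from 250 bases before a start site to 50 after it, were listed for 7 of the 8 genes, with 12 promoters in all. A reproducible peak lay over 1 promoter of Sp8 and over the promoter of Prokr2, so 2 of 7 genes had one, against 48.5% of the 17492 protein-coding genes in the promoter table. Replicate 2 alone had a peak over the promoters of Th and Scgn. No no-antibody peak lay over any of the 12, but the share of all promoters with such a peak was not set beside this. The no-antibody library had 9869 peaks in all, against 78060 and 82093 in MEIS2 replicates 1 and 2. In the sequences below, written 5′ to 3′ on the strand of the gene, capitals mark the bases under the peaks of both MEIS2 replicates for Sp8 and Prokr2, and the bases under the replicate 2 peak for Th.
Sp8, chr12:118846983-118847262, plus strand: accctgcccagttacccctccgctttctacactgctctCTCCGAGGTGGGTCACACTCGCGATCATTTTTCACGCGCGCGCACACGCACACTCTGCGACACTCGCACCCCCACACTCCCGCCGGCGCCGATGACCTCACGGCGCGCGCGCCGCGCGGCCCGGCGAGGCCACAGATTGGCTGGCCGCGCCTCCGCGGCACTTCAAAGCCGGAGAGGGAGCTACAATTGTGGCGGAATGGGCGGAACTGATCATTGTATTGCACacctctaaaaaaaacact
Prokr2, chr2:132385418-132385697, minus strand: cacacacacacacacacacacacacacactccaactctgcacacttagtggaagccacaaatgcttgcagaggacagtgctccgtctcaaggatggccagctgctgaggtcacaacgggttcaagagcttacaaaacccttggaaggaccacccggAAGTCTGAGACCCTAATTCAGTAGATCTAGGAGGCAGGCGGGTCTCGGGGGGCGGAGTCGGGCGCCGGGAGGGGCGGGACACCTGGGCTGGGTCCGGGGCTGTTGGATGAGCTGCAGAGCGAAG
Th, chr7:142899996-142900245, minus strand: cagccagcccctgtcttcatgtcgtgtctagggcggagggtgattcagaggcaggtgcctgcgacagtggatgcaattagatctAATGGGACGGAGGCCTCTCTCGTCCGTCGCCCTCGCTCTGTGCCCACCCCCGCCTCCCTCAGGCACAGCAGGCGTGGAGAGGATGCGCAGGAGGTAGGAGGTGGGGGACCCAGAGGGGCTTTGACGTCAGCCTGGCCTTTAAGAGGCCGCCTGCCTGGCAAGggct

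In Sp8 the 224 bases in capitals ran from 212 bases before the start site at 118847233 to 11 bases after it, and held 31 CpG pairs at a GC content of 67.0%. In Prokr2 the 124 capitals ran from 94 bases before the start site at 132385447 to 29 bases after it, with 9 CpG pairs at 66.9% GC, and both peaks went on into the gene. In Th the 162 capitals ran from 166 to 5 bases before the start site, with 10 CpG pairs at 67.9% GC. Over all 21263 promoters of protein-coding genes, the median number of CpG pairs per 300 bases was 25 in those with a reproducible peak and 4 in those without. The whole 300-base promoters held 32 CpG pairs at the Sp8 start with the peak, 12 at Prokr2 and 15 at Th. Those with no peak in any library held 18 and 16 at Pax6, 12 and 3 at Etv1, 2 and 10 at the other Sp8 starts and 3 at each Dcx start, so the Pax6 promoters had more CpG pairs than that of Prokr2 and no peak.

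The promoters were searched for 4 motifs on both strands. TGACAG, the core bound by MEIS factors, lay in 2 of the 12 promoters and in 18.7% of all 21263. These matches were 155 bases before the first Sp8 start, where there was no peak, and 159 bases before the second Pax6 start. TGATTGAC, a PBX-type element that can overlap TGACAG by its last 4 letters, lay in 0 of the 12 and in 0.785% of all. The homeodomain core TAATTA lay in 3 of the 12, at the third Sp8 start and in both Dcx promoters, which overlap and share 1 match, and in 4.53% of all. TGACGTCA, a cyclic AMP response element added to the search after the sequences were seen, lay in 2 of the 12, Pax6 and Th, and in 2.23% of all. As the motif was added after the sequences were seen, these shares are no independent comparison. The match in Pax6 was at the first start, where there was no peak. In Th it occupied bases 45 to 38 before the start site, within the capitals above. None of the first 3 motifs lay in the sequences printed above. Among all promoters TGACAG was found in 14.8% of those with a reproducible peak and 21.9% of those without. For TAATTA these shares were 1.38% and 7.16%, for TGATTGAC 0.745% and 0.819%, and for TGACGTCA 3.28% and 1.36%. Median GC content was 65% in promoters with a reproducible peak and 49.3% in those without, and its part in these shares was not tested.

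Sp8, a zinc finger factor needed for bulb interneuron development, lies at chr12:118846288-118852578, on the plus strand. It had 4 reproducible peaks among 5 of replicate 1 and 5 of replicate 2, with 0 no-antibody peaks in the window. The peak with the highest fold enrichment of the 4, chr12:118836494-118837137, had its summit 9515 bp upstream of the first start site and a fold enrichment of 8.86 in replicate 1 and 9.48 in replicate 2. Its lower value ranked at the 81.4 percentile of all 47809 reproducible peaks. Fold enrichment is the authors' value for each peak, the tags stacked at the summit over those expected locally. The peak over the start site printed above, chr12:118847007-118847244, had its replicate 1 summit 94 bp before that start, with fold enrichments of 6.09 and 4.53 in replicates 1 and 2. A wider peak of 1253 bp inside the gene, chr12:118848617-118849869, had 6.57 and 5.65 and met 2 separate replicate 2 peaks. The remaining peak, chr12:118855128-118855349, lay 2627 bp beyond the gene with 5.29 and 5.10. Sp8 thus had reproducible peaks before, at and after its start sites, and the upstream one ranked above the other 3.

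Pax6, a paired-box factor that promotes the dopaminergic fate in the bulb, lies at chr2:105668896-105698410, on the plus strand. Its window held 6 replicate 1 peaks, 10 replicate 2 peaks and 1 control peak. There were 4 reproducible peaks, and none lay at either of its 2 listed start sites. The upstream one, chr2:105661929-105662138, was 6901 bp before the first start and lay within the noncoding gene Pax6os1. Its fold enrichment was 5.99 in replicate 1 and 5.52 in replicate 2. The other 3 lay inside the gene, at chr2:105674800-105675417 with 4.78 and 4.34, at chr2:105676116-105676723 with 5.11 and 5.10, and at chr2:105681328-105681504 with 4.55 and 3.59. The last of these was 1078 bp before the second start. All 4 ranked below the median of all reproducible peaks, between the 3.38 and 40.9 percentiles.

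The highest peaks of the Pax6 window were each found in 1 MEIS2 library. In replicate 1 this was chr2:105638647-105638931, 30096 bp upstream, with 19 stacked tags, a fold enrichment of 11.8 and a rank at the 89.1 percentile of that library. The nearest replicate 2 peak was 5953 bp away. In replicate 2 it was chr2:105644884-105645316, with 14 stacked tags and a fold enrichment of 9.56. Within the noncoding gene Paupar, which lies upstream of Pax6, replicate 1 had a peak at chr2:105660628-105660900 with 8.01 and replicate 2 a peak with 4.67, and the 2 intervals were 448 bp apart. The replicates therefore both had peaks in Paupar, but at no shared base. The single no-antibody peak, chr2:105725314-105725685, lay in Elp4 and overlapped a replicate 2 peak.

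Etv1, an ETS-family factor of bulb interneuron precursors, lies at chr12:38780082-38870483, on the plus strand. No peak of any of the 3 libraries fell inside its 90.4 kb. Of the 2516 protein-coding genes of 50 to 100 kb, 3.18% had no MEIS2 peak of either replicate inside the gene. All of its 3 reproducible peaks lay outside. The nearest, chr12:38778616-38779084, was 1125 bp upstream of the first start, with fold enrichments of 8.82 in replicate 1 and 5.10 in replicate 2. This peak missed the 1 kb limit used here for a gene end by a short distance. The others were 31031 bp upstream, with 6.22 and 5.83, and 48649 bp downstream, with 10.6 and 4.81. Within its own library the downstream peak ranked at the 85.3 percentile in replicate 1 and at the 27.4 in replicate 2, while the far upstream one ranked at 48.8 and 54.4. The libraries thus placed the downstream peak far apart in rank.

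A further Etv1 peak was found in all 3 libraries. It lay at chr12:38747045-38747328, 32921 bp upstream, with 16 and 12 stacked tags in the MEIS2 replicates and 7 in the no-antibody library, and so was not counted as reproducible.

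Tshz1, a teashirt zinc finger factor needed for late steps of bulb interneuron development, lies at chr18:84011627-84087708. It had 5 reproducible peaks among 9 of replicate 1 and 8 of replicate 2, with 0 no-antibody peaks in the window. The one with the highest fold enrichment, chr18:83998990-83999208, was 12527 bp beyond the lower-coordinate end, with 9.41 in replicate 1 and 6.38 in replicate 2. Inside the gene, chr18:84015509-84015833 had 5.32 and 5.27, chr18:84048971-84049142 had 5.28 and 5.10, and chr18:84085176-84085469 had 3.89 and 4.88. The 3 peaks inside the gene all ranked below the median of reproducible peaks.

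A broad peak of 1027 bp, chr18:84087463-84088489, spanned the higher-coordinate end of Tshz1. It had fold enrichments of 6.02 and 4.28, and its replicate 1 summit lay 389 bp outside Tshz1 and 29 bp from an end of Zadh2. The replicate 2 summit lay 159 bp outside Tshz1 and 259 bp from that end of Zadh2, so the nearer gene differed between the libraries. Position alone does not give this peak to 1 of the 2 genes. Beyond it, replicate 2 had a peak with 9.52 and replicate 1 had peaks with 6.20 and 7.64, all at different places. The replicate 1 peak with 6.20 was 4137 bp from that of replicate 2.

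Prokr2, the receptor gene, lies at chr2:132369705-132385502, on the minus strand. It had 1 reproducible peak, chr2:132385138-132385546, which covered the start of the gene as printed above. The stacked tags were 17 in replicate 1 and 13 in replicate 2, and the fold enrichments were 8.86 and 7.73. The summits of the 2 libraries fell on the same base, 143 bp after the listed start site. It ranked at the 73.1 percentile of all reproducible peaks, above the median, although Prokr2 had the fewest reproducible peaks of the 8 genes. Replicate 2 had 2 further peaks, 1 inside the gene with a fold enrichment of 6.38 and 1 beyond its 3′ end with 5.74. Replicate 1 had none besides the start-site peak, and the no-antibody library had none in the window.

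Th lies at chr7:142892779-142899995, on the minus strand. Both of its reproducible peaks were far upstream. The one at chr7:142927483-142927820 was 27626 bp from the start, with fold enrichments of 8.89 in replicate 1 and 6.88 in replicate 2. The one at chr7:142935859-142936476 was 36044 bp from the start, with 8.37 and 5.63. Its replicate 1 summit was nearer to an end of the coding gene Ascl2, outside the window, at 30783 bp. Position alone therefore does not give this peak to Th. In the gene and at its start the replicates did not coincide. Replicate 1 had peaks inside the gene at chr7:142893842-142894247, with a fold enrichment of 6.55, and at chr7:142896864-142897035, with 4.58. Replicate 2 had 1 inside at chr7:142895355-142895735, with 4.16, and the promoter peak printed above, chr7:142900000-142900161, with 9 stacked tags and 5.16. The nearest replicate 1 peak to that promoter peak was 2965 bp away. The no-antibody library had 2 peaks in the Th window, both downstream of the gene, with 7.35 and 5.54, and neither overlapped a MEIS2 peak. The one with 5.54, chr7:142874969-142875211, lay just beside a replicate 2 peak at chr7:142874644-142874918. That replicate 2 peak had 7.65, the highest fold enrichment of its library in this window.

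Scgn lies at chr13:23953456-23991327, on the minus strand, next to the histone genes H2bc1 and H2ac1, the transporter gene Slc17a4 and Carmil1. It had 5 reproducible peaks, and 4 of them lay within other genes. The highest, chr13:23912117-23912373, was in Slc17a4, with fold enrichments of 13.5 in replicate 1 and 11.5 in replicate 2, at the 91.3 percentile of all reproducible peaks. A peak in H2bc1, chr13:23933702-23934043, had 12.6 and 10.7, and its summit was 143 bp from an end of that gene. A peak in H2ac1, chr13:23934529-23934795, had 4.72 and 4.50, with its summit 215 bp from an end. The histone genes' own ends were thus nearer to these peaks than any end of Scgn. A weak peak in Carmil1, chr13:24036251-24036470, had 3.29 and 4.76, the lowest rank of all 26, at the 1.77 percentile. The only reproducible peak of this window outside any other gene, chr13:23998782-23998964, was 7671 bp upstream of the Scgn start, with 5.88 and 5.74, and the intervals of the 2 replicates shared 29 bp.

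The MEIS2 peak with the most stacked tags in the 8 windows, also in Carmil1, coincided with a no-antibody peak. It lay at chr13:24028357-24029074 with 91 stacked tags and a fold enrichment of 17.1 in replicate 1, and 80 and 16.6 in replicate 2. The no-antibody peak there had 15 stacked tags and a fold enrichment of 4.38. Stacked tags are not scaled to depth, where the caller kept 7618406 (replicate 1), 6559629 (replicate 2) and 6337375 (control) tags. The overlap rule removed this peak and also a second one in Carmil1, chr13:24033935-24034376, with 9 and 11 stacked tags in the MEIS2 replicates and 22 in the control. At the first of these places the stacked tags were higher in both MEIS2 libraries than in the control, and at the second they were lower. At the start of Scgn itself, replicate 2 alone had a peak, with 5 stacked tags and a fold enrichment of 3.83.

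Dcx lies at chrX:143855842-143933396, on the minus strand. It had 2 reproducible peaks, and they ranked first and second of the 26. The farther, chrX:143978457-143978963, was 45471 bp upstream of the nearest listed start, with 56 stacked tags in replicate 1 and 44 in replicate 2 and fold enrichments of 19.0 and 17.2. Its lower value stood at the 98.4 percentile of all reproducible peaks. The nearer, chrX:143963739-143964232, was 30691 bp upstream, with 37 and 32 stacked tags and fold enrichments of 14.7 and 13.1, at the 94.1 percentile. Both lay between genes, with the noncoding gene Gm33039 as the nearest other gene in the window. A no-antibody peak at chrX:143958710-143958942, with a fold enrichment of 4.62, lay 4797 bp from the nearer one. Inside the gene there was 1 replicate 1 peak, with 5.88, and none of replicate 2.

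**Figure D2:**
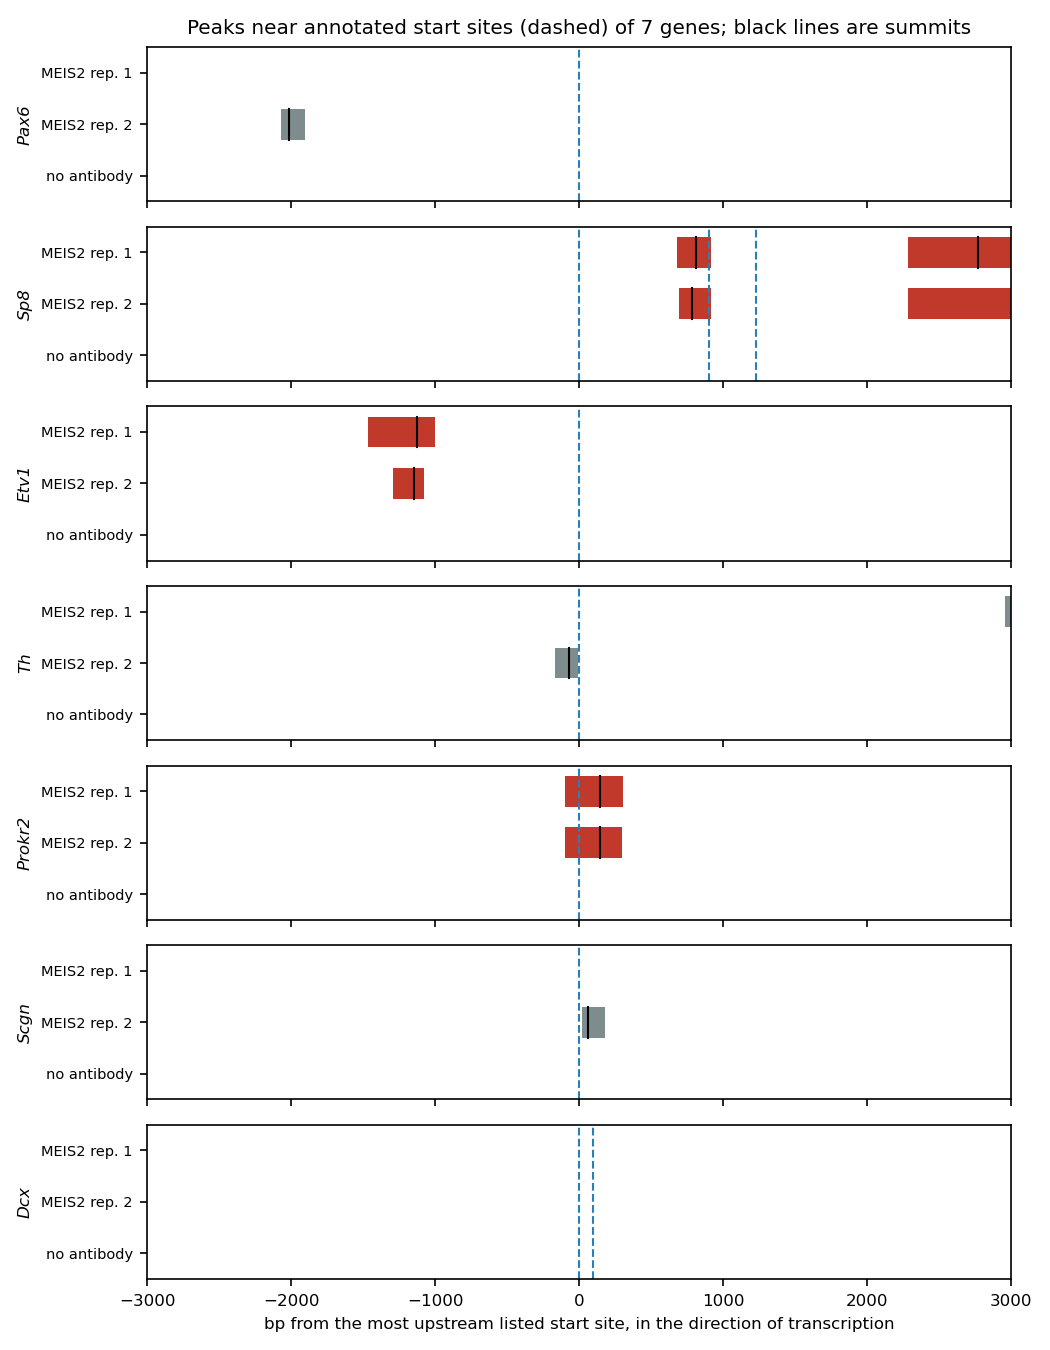
Peak intervals within 3000 bp of the most upstream listed start site (dashed lines mark start sites, black lines summits) for the 7 genes with listed promoters; red intervals are shared by both MEIS2 libraries without a control peak and grey ones are in 1 library. Only Sp8 and Prokr2 have red intervals over a start, Etv1 has them 1125 bp upstream, and Th and Scgn have grey ones in replicate 2.

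Of the 8 genes, 3 had a reproducible summit within 1 kb of either gene end, Sp8, Prokr2 and Tshz1 (37.5%), while 52.4% of protein-coding genes did. The 26 peaks were spread as 9 inside a member gene, 10 upstream, 5 downstream and 2 outside Tshz1. Of the 26, 11 lay outside the gene and more than 10 kb from its ends, and these included both peaks of Th and both of Dcx. The 9 inside a gene were 3 in Pax6, 3 in Tshz1, 2 in Sp8 and 1 in Prokr2. Etv1, Th, Scgn and Dcx had no reproducible peak in the gene body. For these places inside and outside the genes, no share over all protein-coding genes or all reproducible peaks was set beside the counts. They describe these loci and are not shown to be particular to them.

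Per 100 kb of window, which allows for gene length, Sp8 had 3.76 reproducible peaks, Scgn 3.63, Pax6 3.09, Tshz1 2.84, Th 1.87, Etv1 1.58, Dcx 1.13 and Prokr2 0.864. The median of the 8 was 2.35 and that of all protein-coding genes 2.71, and 4 of the 8 lay above the latter. The order rests on counts of 1 to 5 peaks, and on the window. With 10 kb each side, Scgn kept 1 of its 5 peaks, Etv1 1 of 3, and Th and Dcx 0. Pax6 and Sp8 kept all 4 each, Tshz1 kept 4 of 5 and Prokr2 kept its 1. Within 1 locus the replicates' own counts differed by up to 4 (Pax6, 6 and 10), so neighbours in this order were not separated beyond the spread between libraries.

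**Figure D3:**
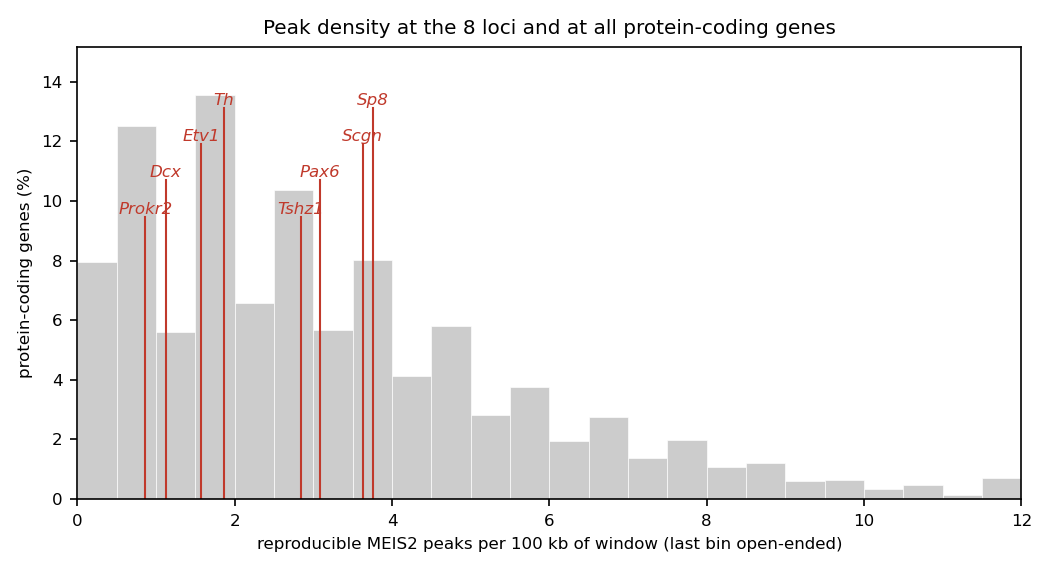
Reproducible peaks per 100 kb of window, with grey bars giving the percentage of all protein-coding genes in each bin and red lines the 8 genes. The 8 lie between 0.864 and 3.76, within the bulk of the distribution, with 4 on each side of the median of 2.71.

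Apart from both Dcx peaks and the Slc17a4 peak near Scgn, no peak of the 26 ranked above the 90th percentile. Their median lower fold enrichment was 5.40, against 5.94 over all reproducible peaks, and 8 of the 26 lay above that genome-wide median. Replicate 1 had the higher value in 23 of the 26, against 66.7% of all reproducible peaks. The lower value was thus mostly that of replicate 2. The range was 3.29 to 17.2. Median length was 332.5 bp, against 378 bp. The summits of the 2 replicates were a median of 38.5 bp apart, against 41 bp over all, and 21 of the 26 pairs were under 100 bp apart.

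**Figure D4:**
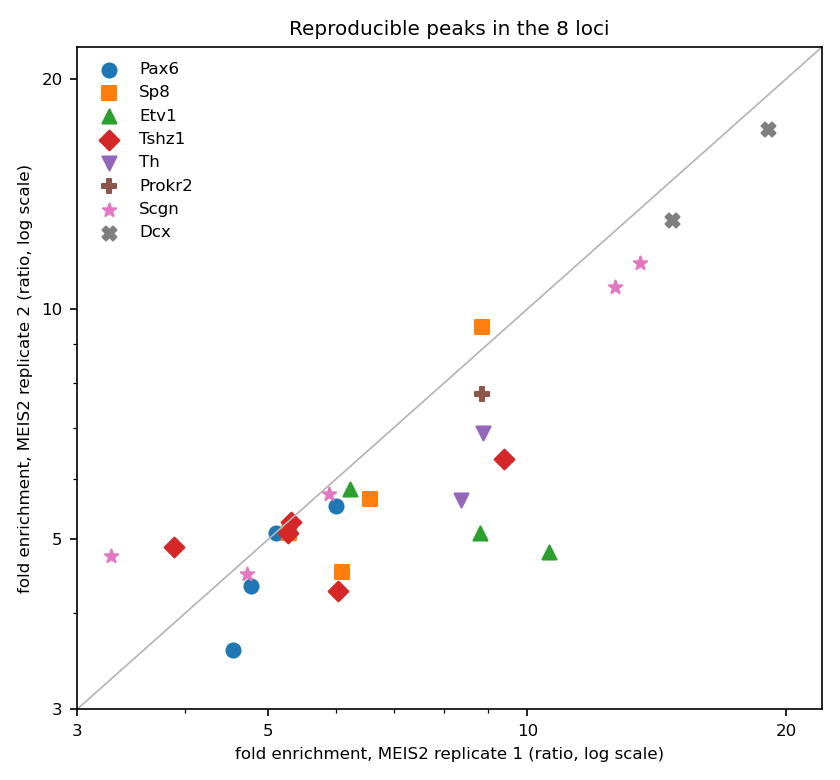
Fold enrichment of the 26 reproducible peaks in MEIS2 replicate 1 (x axis, log scale) and replicate 2 (y axis, log scale), with the line of equal values; each symbol is a gene. The 2 Dcx peaks are highest in both libraries, and the point widest from the line is the downstream Etv1 peak at 10.6 and 4.81.

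Over the genome the reproducible share rose with fold enrichment from 32.8% in the lowest decile of replicate 1 peaks to 87.3% in decile 9, and was 74.7% in decile 10, the highest. In the 8 loci, 6 of 6 peaks in decile 8 were reproducible and 0 of 4 in decile 7, where 78.4% of all peaks were. Of those 4, the Etv1 peak found in all 3 libraries did overlap a replicate 2 peak, and was left out for its control overlap. Each decile held only 2 to 8 peaks of these loci. The 12 peaks of replicate 1 alone had a median fold enrichment of 6.04, and the 18 of replicate 2 alone had 4.81. The other 3 replicate 1 peaks overlapped a no-antibody peak, 1 in the Etv1 window and 2 in the Scgn window.

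No-antibody peaks fell in the windows of 5 of the 8 genes, Pax6, Etv1, Th, Scgn and Dcx (62.5%), against 26.6% of protein-coding genes. These percentages were not matched for window length. Pooled over the 8 windows there were 0.701 no-antibody peaks per 100 kb. The mean over all genes of each gene's own value was 0.259, a measure that weighs windows differently. None of the 8 no-antibody peaks lay inside a member gene, while 16 of the 41 replicate 1 and 17 of the 50 replicate 2 peaks did. A total of 8 is small, and the share of all no-antibody peaks that lie inside genes was not set beside it. There was 1 no-antibody library, so the count of its peaks has no replicate check. Its part in the MEIS2 counts beyond the overlaps removed was not tested.

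A wider list of 39 other genes of bulb interneurons and their precursors, which included Gsx2, Dlx genes, Gad1, Calb2 and Slit and Robo guidance genes, was counted in the same way. All 39 had a reproducible peak in the window (92.8% of protein-coding genes), with a median of 4 peaks and 2.67 per 100 kb (medians of 4 and 2.71 over all protein-coding genes). At a gene end, 26 of 39 had one (66.7%, against 52.4% of protein-coding genes). A no-antibody peak lay in the window of 14 of the 39, a larger share than the 26.6% of protein-coding genes. These shares were not matched for window length. The highest counts were 15 for Robo1 and 10 for Robo2, receptors of the Slit guidance cues, 11 for the neuregulin receptor gene Erbb4 and 9 for the neuronal tubulin gene Tubb3. Per 100 kb of window these were 1.34 for Robo1, 0.604 for Robo2, 0.935 for Erbb4 and 8.15 for Tubb3. Only Tubb3 was thus above the median of 2.71. Of 11 paralogs of the transcription factor members, all had a reproducible peak in the window and 9 had one at a gene end (81.8%, against the same 52.4%). A no-antibody peak lay in the window of 1 of the 11. Their median was 2.78 reproducible peaks per 100 kb, and their counts were led by Tshz2 with 15 peaks and Pax2 with 8. The paralog Pax7 had 6 and Sp1 had 5. Window lengths differ between these genes, so the counts are not levels of binding.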

How the data were processed

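CUT&Tag peak tables of 3 libraries were used. Per the file headers, the authors called peaks library by library at a q cutoff of 0.05, keeping 1 tag per position and giving the caller, MACS 2.2.7.1, no control. MACS2 appears as 2.1.4 in the submitters' processing notes, a version that differs from the headers, beside mm10, Bowtie2 2.3.4, Picard and Trimmomatic. The deposited signal, the pileup, counts tags stacked at the summit without scaling for depth. Fold enrichment, also deposited, is a ratio to the local expectation within a library, so raw values of different libraries stand side by side as a description, and only ranks and overlaps carry over between them. The lower value of each reproducible peak was taken from the raw values of both replicates, so its ranks carry this limit too. The −log10 values of p and q (p-value, q-value) were deposited as the caller gave them. Tags kept after filtering were 7618406 (of 74259592), 6559629 (of 79760948) and, in the control, 6337375 (of 72763762).

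Peaks on the autosomes, X and Y (78060, 82093 and 9869) were overlapped in Python 3.11.15 with pandas 2.3.3, by code checked on simulated intervals. Gene positions and promoters came from RefSeq tables of GRCm38.p6, without exons, so introns and UTRs were not told apart. A gene end is either end within 1 kb, and a promoter is 250 bases before to 50 after a listed start. The 8 genes and both wider lists were chosen with earlier results of these data known, so counts stand beside those over all genes and no test was made. All members and their reproducible peaks are named, and of each wider list the 4 genes with most peaks. The alternatives were a 50% reciprocal overlap, a stricter q, windows of 10 and 100 kb, summit placement, counting replicate 2, leaving out each replicate, keeping control overlaps and a 2.5 kb gene end.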

Additional observations from a re-analysis of the deposited data

How the results depend on the processing

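With a −log10 q of at least 5 in every list, the 26 reproducible peaks became 17, the 3 genes with a gene-end peak became 1 (Prokr2), the 8 no-antibody peaks became 4, and the median lower fold enrichment of 5.40 became 6.38. With windows of 10 kb, 15 reproducible and 0 no-antibody peaks were left, and 6 of the 8 genes had a reproducible peak, Th and Dcx having none. With 1 MEIS2 replicate left out, the peaks clear of no-antibody peaks numbered 38 without replicate 2 and 46 without replicate 1, the genes with a gene-end peak 3 to 5, and the median fold enrichment 5.10 to 6.15. All 8 genes had a reproducible peak under every alternative that used both replicates except the 10 kb window, and with 1 replicate left out all 8 had a peak clear of no-antibody peaks. The other alternatives gave 23 to 36 reproducible peaks, and the reproducible share was 56 to 70.7%. Counts per gene stayed within 1.5 times in 54 of 72 cases, the widest ranges being Pax6 and Tshz1, each 2 to 9.

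The 2 MEIS2 libraries and 1 control library give no test of differences between libraries. Peak lists hold no coverage outside peaks, so a base without a peak is below the caller's threshold and not shown to be unbound. No paired analysis was possible because there is a single control library, so fewer than 2 replicate numbers are shared, and no test was made.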
